A study of Mus musculus with 12 samples.

Results

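The change in gene expression without Hoxa9 was set against the change without Prmt1 in mouse LSK cells, the lineage-negative, Sca-1-positive, Kit-positive bone marrow fraction in which blood stem cells and multipotent progenitors are found. The comparison rests on 8 of the 12 RNA-seq libraries of the series, chosen by their labels, in 4 groups of 2. HOXA9_KO stands against WT, and PRMT1_KO against its own wild-type group WT_PRMT1. The series' design text says that the cells came from primary transplanted mice, taken 6 weeks after tamoxifen, and it gives this for wild-type and knockout mice alike. The titles call the 2 mutant groups KO, whereas the genotype field calls them knockdown. The Cre driver, the deleted exons, the age of the mice, what the recipients kept of their own blood cells and whether the libraries of a group are separate animals are, in the sources used here, not given. A p-value therefore measures the spread between libraries, and this may be technical. That spread was 1 estimate per gene for all groups of the series, but replicates differed unequally. The chi-square per degree of freedom between the 2 libraries of a group was 32 in HOXA9_KO and 17.2 in WT. It was 10.7 in PRMT1_KO and 8.42 in WT_PRMT1. The p-values may thus be too small for HOXA9_KO and too large for PRMT1_KO. Per gene, the difference is (HOXA9_KO minus WT) minus (PRMT1_KO minus WT_PRMT1) on the log2 scale. Of 17063 genes tested, the 16503 on autosomes are described, because the knockout and wild-type libraries differed in the genes of the sex chromosomes.

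Hoxa9 is a homeodomain transcription factor that binds DNA with partner proteins, is high in blood stem cells and early progenitors, and is shut down as they mature. Prmt1 is the main enzyme that places asymmetric dimethyl marks on arginines, on histone H4 and on many RNA-binding and DNA repair proteins. The title of the series places Hoxa9 with beta-catenin in a pathway that depends on Prmt1 and that bears on DNA replication, so the question set here is which genes the single losses changed alike and which they changed in opposite directions.

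The targeted genes were low in their own knockout libraries. Hoxa9 stood at 12.2 and 8.36 CPM in HOXA9_KO against 58.7 and 59.9 in WT, and at 41.1 and 43 in PRMT1_KO against 44.7 and 44.4 in WT_PRMT1. Its log2 change was -2.53 ± 0.17 without Hoxa9 and -0.08 ± 0.16 without Prmt1. Prmt1 stood at 272 and 272 CPM in HOXA9_KO against 322 and 334 in WT, and at 118 and 112 in PRMT1_KO against 283 and 292 in WT_PRMT1, so PRMT1_KO kept 112 to 118 CPM of it. Its log2 change was -0.27 ± 0.07 without Hoxa9 and -1.33 ± 0.07 without Prmt1, and the small change in HOXA9_KO was called (adjusted p = 0.029). That call was lost for Prmt1 (HOXA9_KO S5, HOXA9_KO S4, WT S2 or WT S1 left out, adjusted p up to 0.314). Throughout, levels are CPM, read counts relative to the TMM-scaled library size, changes are log2 ± SE from edgeR's quasi-likelihood fit, and a call is a Benjamini-Hochberg adjusted p under 0.05 over all genes tested.

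Total counts ran from 17569709 to 24414323 per library. In both pairs the sex-typed genes moved together: Ddx3y, on the Y chromosome, stood at 61.4 and 66.2 CPM in HOXA9_KO against 1.88 and 2.87 in WT, and at 93.5 and 87.1 in PRMT1_KO against 0.792 and 1.8 in WT_PRMT1. Xist, on the X chromosome, stood at 0 and 0.582 CPM in HOXA9_KO against 182 and 163 in WT, and at 0.735 and 0.758 in PRMT1_KO against 202 and 170 in WT_PRMT1. A change shared by both knockouts therefore cannot be told apart from one that goes with sex. The gate genes were present in all 8 libraries: Ly6a, which encodes Sca-1, stood at 135 and 154 CPM in HOXA9_KO against 93.2 and 103 in WT, and at 298 and 270.3 in PRMT1_KO against 99.6 and 86.9 in WT_PRMT1, and both gate genes rose in both knockouts. Without 1 library the call in HOXA9_KO was lost for Ly6a (HOXA9_KO S5 or WT S1 left out, adjusted p up to 0.0965). The wild-type groups also differed, with 1260 autosomal genes called between WT and WT_PRMT1 (7.63% of those tested), 644 higher (3.9%) and 616 lower (3.73%) in WT. Receptor genes of the olfactory and vomeronasal families, not known to serve blood cells, summed to 84.5 and 63.3 CPM in HOXA9_KO against 181 and 137 in WT, and to 87.2 and 80.1 in PRMT1_KO against 144 and 146 in WT_PRMT1. In bulk RNA, fewer cells of a type and less RNA per cell cannot be told apart.

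For 35 of 60 DNA replication genes the difference was called higher and for 0 lower, against 9.71% and 8.46% of all autosomal genes. Promoters of 4 of them are shown here because they were lower in PRMT1_KO, were not called in HOXA9_KO and hold the letters of an E2F site, E2F being the factor family that drives S-phase genes. Each run is 300 bases, 250 before the start and 50 after it, 5′ to 3′ on the gene's strand, from RefSeq on GRCm38.p6. Capitals mark TTTGGCGC or TTTCGCGC, searched on both strands, so that a match on the other strand reads as its reverse complement. Lig1 (DNA ligase 1) lies at chr7:13278576-13278875, Clspn (claspin, a checkpoint mediator at forks) at chr4:126556730-126557029, Mcm5 at chr8:75109259-75109558, all on the plus strand, and Mcm6 at chr1:128359656-128359955 on the minus strand. Mcm5 and Mcm6 encode subunits of the replicative helicase. Lig1 has 3 windows, and the other two hold 0 matches.
Lig1: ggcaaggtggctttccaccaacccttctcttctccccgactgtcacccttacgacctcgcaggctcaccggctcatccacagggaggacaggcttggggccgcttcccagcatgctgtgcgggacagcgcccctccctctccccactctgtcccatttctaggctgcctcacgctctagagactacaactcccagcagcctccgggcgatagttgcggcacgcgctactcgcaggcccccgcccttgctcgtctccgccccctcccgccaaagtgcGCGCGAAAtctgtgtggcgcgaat
Clspn: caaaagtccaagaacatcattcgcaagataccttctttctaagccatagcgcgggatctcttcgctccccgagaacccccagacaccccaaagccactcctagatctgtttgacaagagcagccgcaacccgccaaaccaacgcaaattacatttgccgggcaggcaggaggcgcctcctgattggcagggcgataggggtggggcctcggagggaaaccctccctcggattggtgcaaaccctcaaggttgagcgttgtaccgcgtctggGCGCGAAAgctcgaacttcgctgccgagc
Mcm5: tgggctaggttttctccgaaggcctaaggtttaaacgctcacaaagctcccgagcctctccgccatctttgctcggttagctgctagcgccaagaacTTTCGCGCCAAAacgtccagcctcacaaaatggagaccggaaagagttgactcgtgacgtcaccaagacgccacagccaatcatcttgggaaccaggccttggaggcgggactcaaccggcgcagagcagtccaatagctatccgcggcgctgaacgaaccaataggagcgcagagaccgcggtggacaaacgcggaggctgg
Mcm6: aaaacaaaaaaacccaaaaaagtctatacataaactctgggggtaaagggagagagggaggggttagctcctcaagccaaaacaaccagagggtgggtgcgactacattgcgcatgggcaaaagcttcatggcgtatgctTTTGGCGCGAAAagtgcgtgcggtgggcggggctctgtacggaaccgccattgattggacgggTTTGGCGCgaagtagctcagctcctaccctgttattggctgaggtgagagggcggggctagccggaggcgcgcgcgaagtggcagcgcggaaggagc
These letters stood in 10 of 60 promoter windows of the replication list (16.7%), in 257 of 31396 autosomal windows (0.819%), in 2.31% of windows of the genes that moved in opposite directions and in 1.35% of those of the shared genes. A match describes the letters, not binding.

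More genes were called in PRMT1_KO than in HOXA9_KO, and most genes called in the difference were called in PRMT1_KO only. In HOXA9_KO 727 autosomal genes rose and 376 fell, 4.41% and 2.28% of those tested and 6.68% in all. In PRMT1_KO 2748 rose and 2628 fell, 16.7% and 15.9%, or 32.6% in all. The difference itself was called for 2999 genes (18.2%), higher for 1603 (9.71%) and lower for 1396 (8.46%). Of these, 2367 (78.9%) were called in PRMT1_KO only, 191 (6.37%) in HOXA9_KO only, 167 (5.57%) in both in the same direction, 129 (4.3%) in both in opposite directions and 145 (4.83%) in neither. A direct comparison of HOXA9_KO with PRMT1_KO, which called 30.3% of all autosomal genes, gave a call to 2499 of the 2999 in the same direction (83.3%). It uses the same knockout libraries as the difference, so this share is no independent support. For 461 of the 2999 (15.4%) the wild-type groups differed in the direction that adds to the difference, and for 2446 (81.6%) no difference between them was called. With scaling by library size alone the split was 2199 higher and 994 lower for the difference, and 1994 higher and 3460 lower in PRMT1_KO, and the median difference over all autosomal genes was 0.17 in place of 0.026.

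**Figure D1:**
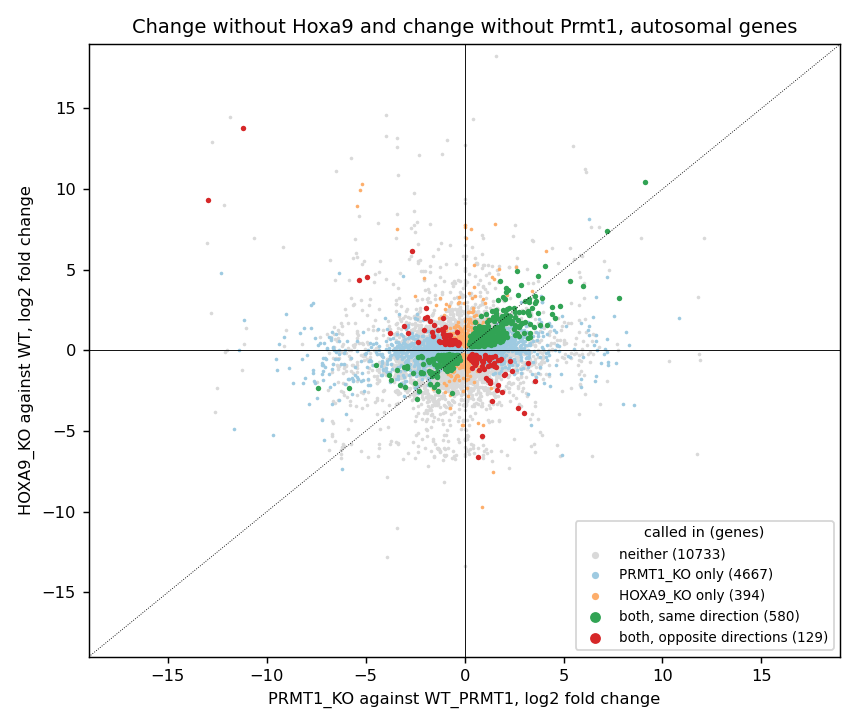
Log2 change in HOXA9_KO against WT (vertical axis) and in PRMT1_KO against WT_PRMT1 (horizontal axis) for the 16503 autosomal genes tested, with points coloured by call. The 419 genes higher in both and the 161 lower in both lie along the rising diagonal, and the 129 called in opposite directions lie in the other quadrants.

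Genes called in both knockouts moved mostly the same way. Both rose for 419 genes (57.6% of the genes higher in HOXA9_KO and 15.2% of those higher in PRMT1_KO, 2.54% of all tested), and both fell for 161 (42.8% and 6.13%, 0.976% of all tested). Opposite calls were fewer: 55 genes rose in HOXA9_KO and fell in PRMT1_KO (0.333% of all tested), and 74 fell in HOXA9_KO and rose in PRMT1_KO (0.448%). The difference was called for all 129, which adds no support, because it subtracts the same single changes that define this class. The HOXA9_KO list was the less steady part: without WT S1 it held 500 genes, with 300 shared and 52 opposite, without WT S2 it held 600, with 338 shared and 74 opposite, and without HOXA9_KO S4 it held 666, with 71 opposite.

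The 55 genes that rose without Hoxa9 and fell without Prmt1 had median log2 changes of 0.79 and -0.997. Dock1, an exchange factor for Rac in cell migration and engulfment, stood at 41.1 and 36.4 CPM in HOXA9_KO against 18.6 and 17.1 in WT, and at 9.25 and 8.83 in PRMT1_KO against 28.1 and 28.7 in WT_PRMT1. Its change was 1.12 ± 0.14 without Hoxa9 and -1.65 ± 0.15 without Prmt1 (difference 2.77 ± 0.20, adjusted p = 1.61e-07). Both HOXA9_KO libraries lay above both WT libraries and both PRMT1_KO libraries below both WT_PRMT1 libraries, as in each gene named with it here. The rule by which these genes were named required this separation. Srd5a1, the steroid reductase that turns testosterone into dihydrotestosterone, stood at 16.3 and 15.5 CPM in HOXA9_KO against 5.54 and 5.04 in WT, and at 2.45 and 2.14 in PRMT1_KO against 7.3 and 6.16 in WT_PRMT1. For Srd5a1 the difference was 3.14 ± 0.38, adjusted p = 2.85e-05. Abcg3, an ATP-binding cassette transporter of rodents, stood at 14.5 and 17.6 CPM in HOXA9_KO against 3.24 and 5.78 in WT, and at 2.82 and 2.05 in PRMT1_KO against 8.15 and 7.96 in WT_PRMT1 (difference 3.56 ± 0.44, adjusted p = 3.37e-05). Ltbp4, a matrix protein that holds latent TGF-beta, stood at 10.05 and 9.49 CPM in HOXA9_KO against 3.56 and 3.19 in WT, and at 0.674 and 0.803 in PRMT1_KO against 6.57 and 6.11 in WT_PRMT1. For Ltbp4 the change was 1.53 ± 0.37 without Hoxa9 and -3.08 ± 0.42 without Prmt1. Cdk14, a cyclin-dependent kinase that acts on a Wnt receptor, had a difference of 2.61 ± 0.42, adjusted p = 0.000329.

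Immune receptors were also among them. Clec9a, a lectin of cross-presenting dendritic cells, stood at 5.73 and 12.1 CPM in HOXA9_KO against 3.09 and 4.44 in WT, and at 5.15 and 5.04 in PRMT1_KO against 21.3 and 21.1 in WT_PRMT1 (difference 3.30 ± 0.47, adjusted p = 0.00011). Its level in WT_PRMT1 was higher than in any other group. Tnfrsf17, the plasma cell receptor BCMA, stood at 5.79 and 6.91 CPM in HOXA9_KO against 1.15 and 1.94 in WT, and at 0.368 and 0.535 in PRMT1_KO against 2.151 and 1.53 in WT_PRMT1 (difference 4.02 ± 0.68, adjusted p = 0.000462). Dsg2, a desmosomal cadherin, stood at 7.7 and 3.66 CPM in HOXA9_KO against 1.36 and 1.3 in WT, and at 0.49 and 0.268 in PRMT1_KO against 1.13 and 1.62 in WT_PRMT1. The single call in HOXA9_KO was lost when 1 library was left out for Ltbp4 (HOXA9_KO S4, WT S2 or WT S1 left out, adjusted p up to 0.127), Cdk14 (HOXA9_KO S4, WT S2 or WT S1 left out, adjusted p up to 0.0962), Clec9a (HOXA9_KO S5, WT S2 or WT S1 left out, adjusted p up to 0.451), Tnfrsf17 (WT S1 left out, adjusted p = 0.138) and Dsg2 (HOXA9_KO S4, WT S2 or WT S1 left out, adjusted p up to 0.13). The call in PRMT1_KO was lost for Tnfrsf17 (PRMT1_KO S8 left out, adjusted p = 0.0558) and Dsg2 (PRMT1_KO S9 or WT_PRMT1 S11 left out, adjusted p up to 0.112). Dock1, Srd5a1, Abcg3, Cdk14, Clec9a and Dsg2 share bases with another annotated gene, and the strand setting of the counting was not stated, so reads of a gene and its partner cannot be told apart.

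Among members of the gene lists, the endothelial gene Tie1, the stem cell gene Ndn, the G1 cyclin Ccnd1 and the DNA damage mediator Mdc1 moved this way too. Tie1, a receptor tyrosine kinase of the angiopoietin system, stood at 255 and 226 CPM in HOXA9_KO against 113 and 109 in WT, and at 50.4 and 53.8 in PRMT1_KO against 68.8 and 67.2 in WT_PRMT1 (difference 1.5 ± 0.19, adjusted p = 0.000176). Ndn, the imprinted growth suppressor necdin, stood at 23 and 14.4 CPM in HOXA9_KO against 4.18 and 4.9 in WT, and at 2.57 and 2.23 in PRMT1_KO against 5.55 and 4.76 in WT_PRMT1, with a difference of 3.14 ± 0.47, adjusted p = 0.000175. Ccnd1, cyclin D1, stood at 63 and 44.9 CPM in HOXA9_KO against 35.7 and 34.5 in WT, and at 16.1 and 18.6 in PRMT1_KO against 34.7 and 33.9 in WT_PRMT1. For Ccnd1 the change was 0.62 ± 0.16 without Hoxa9 and -0.98 ± 0.16 without Prmt1. Mdc1, which binds phosphorylated H2AX at breaks, stood at 79.9 and 61.9 CPM in HOXA9_KO against 50.9 and 49.8 in WT, and at 30.2 and 29.4 in PRMT1_KO against 54 and 50.8 in WT_PRMT1. In these 4 genes too, the knockout and wild-type libraries of each pair did not overlap, as in all 55 genes of this class. Every other gene called in both knockouts was separated as well, so the separation goes with the calls and adds no support. Leaving out 1 library, the HOXA9_KO call was lost for Ccnd1 (HOXA9_KO S4, WT S2 or WT S1 left out, adjusted p up to 0.355) and Mdc1 (HOXA9_KO S4, WT S2 or WT S1 left out, adjusted p up to 0.329). The PRMT1_KO call was lost for Tie1 (any library left out, adjusted p up to 0.252) and Ndn (PRMT1_KO S9, PRMT1_KO S8 or WT_PRMT1 S10 left out, adjusted p up to 0.125).

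The 74 genes that fell without Hoxa9 and rose without Prmt1 had median log2 changes of -0.64 and 0.74. Wfdc17, a small secreted protein made by myeloid cells, stood at 0.983 and 1.91 CPM in HOXA9_KO against 19.6 and 16.1 in WT, and at 94 and 83 in PRMT1_KO against 16.1 and 11.4 in WT_PRMT1. Its change was -3.59 ± 0.29 without Hoxa9 and 2.69 ± 0.26 without Prmt1 (difference -6.28 ± 0.39, adjusted p = 1.6e-07). Slc16a11, of the monocarboxylate transporter family, stood at 9.39 and 7.07 CPM in HOXA9_KO against 43.7 and 46.3 in WT, and at 32.6 and 36.6 in PRMT1_KO against 8.66 and 13.4 in WT_PRMT1. The wild-type groups differed for it, with WT near PRMT1_KO and WT_PRMT1 near HOXA9_KO, and the difference was -4.10 ± 0.44, adjusted p = 5.7e-05. Vldlr, the very low density lipoprotein receptor, had the same arrangement, at 6.01 and 2.16 CPM in HOXA9_KO against 22 and 26.7 in WT, and at 31.6 and 24.8 in PRMT1_KO against 7.13 and 8.18 in WT_PRMT1. Chga, the secretory granule protein chromogranin A, did as well, at 3.06 and 1.75 CPM in HOXA9_KO against 11.2 and 9.9 in WT, and at 8.94 and 10.3 in PRMT1_KO against 2.72 and 3.24 in WT_PRMT1. Ccl4, a chemokine, stood at 76.7 and 52.8 CPM in HOXA9_KO against 187 and 177 in WT, and at 407 and 400.3 in PRMT1_KO against 103 and 96.1 in WT_PRMT1 (difference -3.51 ± 0.33, adjusted p = 0.000273). Cyp11a1, the enzyme that starts steroid hormone synthesis, stood at 1.09 and 1.33 CPM in HOXA9_KO against 3.14 and 3.89 in WT, and at 12.9 and 12.3 in PRMT1_KO against 2.72 and 3.69 in WT_PRMT1.

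Fxyd7, a small regulator of the sodium pump, stood at 0 and 0.0832 CPM in HOXA9_KO against 1.05 and 0.463 in WT, and at 12.9 and 10.7 in PRMT1_KO against 1.36 and 1.53 in WT_PRMT1, and the HOXA9_KO libraries held too few counts of it for a fold. Cgnl1, a junction protein, stood at 0.273 and 0.166 CPM in HOXA9_KO against 1.36 and 2.55 in WT, and at 10.5 and 11.5 in PRMT1_KO against 4.75 and 3.64 in WT_PRMT1, and its HOXA9_KO level was also near the counting floor. Across these 8 genes the HOXA9_KO libraries lay below the WT libraries and the PRMT1_KO libraries above the WT_PRMT1 libraries, which the naming rule required. In fits without 1 library the HOXA9_KO call was lost for Ccl4 (WT S2 or WT S1 left out, adjusted p up to 0.0741), Cyp11a1 (HOXA9_KO S5, HOXA9_KO S4, WT S2 or WT S1 left out, adjusted p up to 0.151) and Fxyd7 (HOXA9_KO S4 or WT S1 left out, adjusted p up to 0.132). The PRMT1_KO call was lost for Cgnl1 (PRMT1_KO S9, PRMT1_KO S8, WT_PRMT1 S11 or WT_PRMT1 S10 left out, adjusted p up to 0.197). Of all 129 opposite genes, 44 were also called between WT and WT_PRMT1, 32 of them in the direction that adds to the difference. Over all autosomal genes tested, 7.63% were called between these groups. Directly between HOXA9_KO and PRMT1_KO 122 of the 129 were called, against 30.3% of all autosomal genes. These genes were selected as moving apart in the same knockout libraries, so a high share adds no support.

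Several opposite genes belong to blood lineage lists. Txnip, which binds thioredoxin and limits glucose uptake and is high in quiescent stem cells, stood at 284 and 334 CPM in HOXA9_KO against 436 and 415 in WT, and at 558 and 572 in PRMT1_KO against 234 and 234 in WT_PRMT1. For Txnip the change was -0.46 ± 0.08 without Hoxa9 and 1.27 ± 0.09 without Prmt1 (difference -1.73 ± 0.12, adjusted p = 1.17e-07). Cd27, a TNF receptor family member of multipotent progenitors, stood at 62.5 and 68.1 CPM in HOXA9_KO against 133 and 144 in WT, and at 134 and 137 in PRMT1_KO against 105 and 104 in WT_PRMT1 (difference -1.46 ± 0.12, adjusted p = 4.05e-07). Notch1, the receptor that directs T lineage fate, stood at 48.7 and 53 CPM in HOXA9_KO against 87 and 77.6 in WT, and at 178 and 198 in PRMT1_KO against 139 and 113 in WT_PRMT1 (difference -1.28 ± 0.17, adjusted p = 4.98e-05). Gimap6, a lymphoid GTPase, Csf3r, the G-CSF receptor, Dusp2, a MAP kinase phosphatase, and Insig1, a brake on sterol synthesis, fell in HOXA9_KO by 0.56, 0.38, 0.72 and 0.58 and rose in PRMT1_KO by 0.38, 0.43, 0.50 and 0.46 on the log2 scale. Without 1 library the HOXA9_KO call was lost for Csf3r (HOXA9_KO S5, WT S2, WT S1, PRMT1_KO S9, PRMT1_KO S8, WT_PRMT1 S11 or WT_PRMT1 S10 left out, adjusted p up to 0.455) and Insig1 (HOXA9_KO S5, WT S2, WT S1, PRMT1_KO S9, WT_PRMT1 S11 or WT_PRMT1 S10 left out, adjusted p up to 0.378). The PRMT1_KO call was lost for Csf3r (PRMT1_KO S9 left out, adjusted p = 0.0557) and Insig1 (PRMT1_KO S9, PRMT1_KO S8, WT_PRMT1 S11 or WT_PRMT1 S10 left out, adjusted p up to 0.216). Txnip, Cd27 and Notch1 share bases with another annotated gene.

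**Figure D2:**
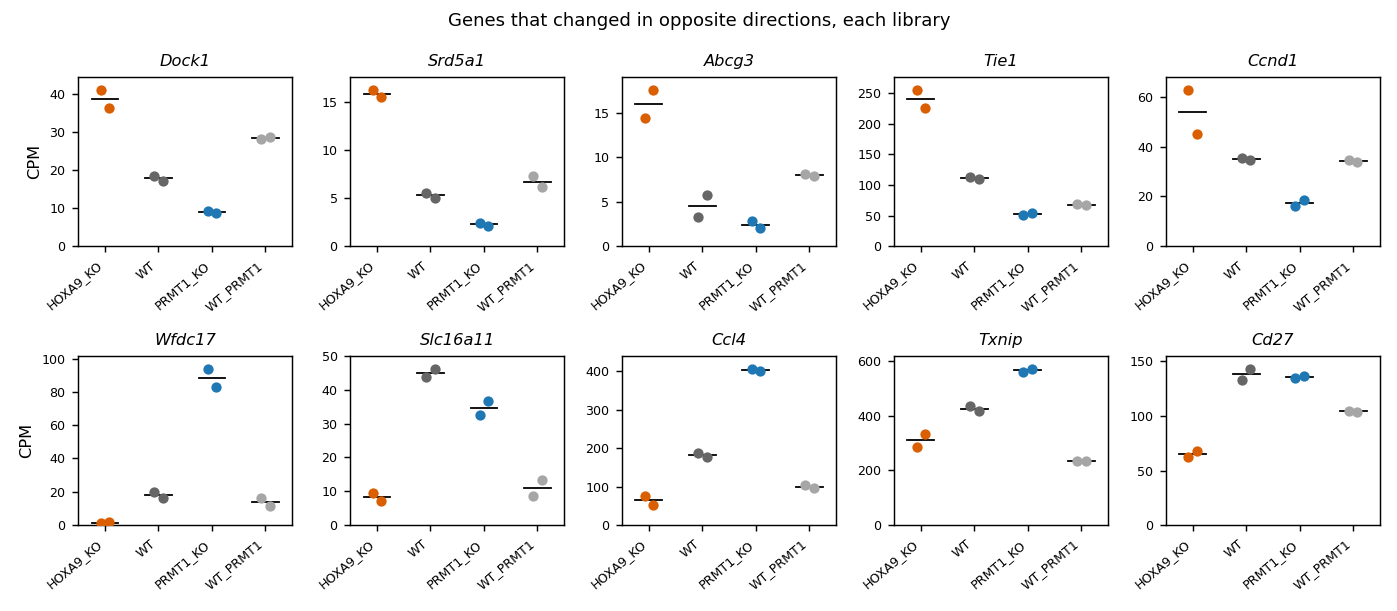
CPM of 10 genes called in opposite directions, 1 panel a gene with its own axis starting at 0, with a point for each library and a short line for the mean of HOXA9_KO, WT, PRMT1_KO and WT_PRMT1 in that order. In Dock1 the HOXA9_KO points (41.1 and 36.4) lie above WT and the PRMT1_KO points (9.25 and 8.83) below WT_PRMT1, and Wfdc17 shows the reverse.

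The 419 genes that rose in both knockouts had a median log2 change of 0.76 in HOXA9_KO and 1.00 in PRMT1_KO, and 282 of them rose more in PRMT1_KO. The difference was called for 105 of them (25.1%), with 96 larger in PRMT1_KO and 9 larger in HOXA9_KO. Clec1a, a C-type lectin of stem and endothelial cells, rose in both, at 45.7 and 44.8 CPM in HOXA9_KO against 3.45 and 5.09 in WT, and at 14.3 and 12.4 in PRMT1_KO against 1.47 and 0.809 in WT_PRMT1. Its changes were 3.40 ± 0.31 without Hoxa9 and 3.57 ± 0.34 without Prmt1 (difference -0.17 ± 0.44, adjusted p = 0.852). Mmp14, a membrane matrix metalloproteinase, stood at 30.7 and 40.3 CPM in HOXA9_KO against 5.28 and 3.89 in WT, and at 39.6 and 39.1 in PRMT1_KO against 3.51 and 3.15 in WT_PRMT1 (difference -0.61 ± 0.27, adjusted p = 0.139). Clu, the secreted chaperone clusterin and a gene of aged and platelet-primed stem cells, stood at 36.7 and 19.6 CPM in HOXA9_KO against 4.5 and 2.45 in WT, and at 25.1 and 22 in PRMT1_KO against 2.151 and 2.83 in WT_PRMT1. Nupr1, a stress-induced nuclear protein, stood at 54.2 and 44.7 CPM in HOXA9_KO against 6.9 and 5.04 in WT, and at 16.4 and 16.4 in PRMT1_KO against 1.87 and 0.899 in WT_PRMT1. For Clu and Nupr1 the adjusted p of the difference was 0.838 and 0.503, and a p that misses the threshold does not show equal changes. Clca3a1, of a family of chloride channel regulators, stood at 61.7 and 78.5 CPM in HOXA9_KO against 5.33 and 3.47 in WT, and at 92.6 and 89.8 in PRMT1_KO against 1.36 and 1.53 in WT_PRMT1, with a larger rise in PRMT1_KO (difference -1.97 ± 0.27, adjusted p = 7.75e-05).

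Fcer1a, the IgE receptor alpha chain of mast cells and basophils, rose more without Prmt1, at 6.23 and 14.4 CPM in HOXA9_KO against 1.26 and 0.925 in WT, and at 11.8 and 13 in PRMT1_KO against 0.113 and 0 in WT_PRMT1, and WT_PRMT1 held too few counts for a fold (adjusted p of the difference = 0.0103). With 1 library fewer the call of the difference was lost for Fcer1a (WT S1 left out, adjusted p = 0.0577). Zg16, a secretory granule lectin, stood at 7.97 and 11.4 CPM in HOXA9_KO against 0.418 and 0.37 in WT, and at 4.1 and 6.15 in PRMT1_KO against 0.679 and 0.135 in WT_PRMT1. Myom1, a sarcomere protein, stood at 13.5 and 12.5 CPM in HOXA9_KO against 2.09 and 0.972 in WT, and at 9.68 and 8.43 in PRMT1_KO against 1.25 and 0.944 in WT_PRMT1. None of the 8 had knockout and wild-type libraries that overlapped in either pair, because the naming rule required separation. Leaving out 1 library, the HOXA9_KO call was lost for Fcer1a (WT S2 or WT S1 left out, adjusted p up to 0.0841), and the PRMT1_KO call for none of them. Myom1, Zg16 and Clca3a1 share bases with another annotated gene. Between WT and WT_PRMT1 194 of the 580 shared genes were called, against 7.63% of all autosomal genes tested.

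The 161 genes that fell in both had median log2 changes of -0.57 in HOXA9_KO and -0.91 in PRMT1_KO, and 113 fell more in PRMT1_KO. The difference was called for 62 (38.5%), of which 59 fell more in PRMT1_KO and 3 more in HOXA9_KO. Heat shock genes were among the largest falls. Hspa1b, an inducible Hsp70, stood at 169 and 175 CPM in HOXA9_KO against 927 and 773 in WT, and at 3.8 and 3.39 in PRMT1_KO against 629 and 578 in WT_PRMT1 (difference 5.09 ± 0.35, adjusted p = 8.34e-05). Hspa1a, its near-identical neighbour, stood at 61.9 and 65.1 CPM in HOXA9_KO against 350.3 and 284 in WT, and at 3.68 and 5.08 in PRMT1_KO against 257 and 253 in WT_PRMT1, and reads of the 2 copies may have been split or dropped in counting. Hspb1, the small heat shock protein Hsp27, stood at 3.93 and 6.07 CPM in HOXA9_KO against 31.2 and 16.8 in WT, and at 1.23 and 1.78 in PRMT1_KO against 12.7 and 12.2 in WT_PRMT1 and has a near copy, Gm9817. Apold1, a vascular early response gene, stood at 2.51 and 1.54 CPM in HOXA9_KO against 9.2 and 5.28 in WT, and at 0.735 and 0.535 in PRMT1_KO against 8.09 and 8.63 in WT_PRMT1 (difference 1.88 ± 0.55, adjusted p = 0.0232). After leaving out 1 library the call of the difference was lost for Apold1 (HOXA9_KO S4, WT S2, PRMT1_KO S9, WT_PRMT1 S11 or WT_PRMT1 S10 left out, adjusted p up to 0.132). Depp1, a FoxO target, stood at 1.31 and 1.41 CPM in HOXA9_KO against 5.65 and 5.74 in WT, and at 3.06 and 2.32 in PRMT1_KO against 10.1 and 7.82 in WT_PRMT1, with changes of -2.06 ± 0.38 without Hoxa9 and -1.74 ± 0.37 without Prmt1. Fam129c, a B cell protein, stood at 2.95 and 3.95 CPM in HOXA9_KO against 15.7 and 12.3 in WT, and at 1.84 and 2.05 in PRMT1_KO against 11 and 11.2 in WT_PRMT1. Colq, the collagen tail of acetylcholinesterase, stood at 1.37 and 1.71 CPM in HOXA9_KO against 5.81 and 7.59 in WT, and at 0.368 and 0.401 in PRMT1_KO against 3.79 and 3.82 in WT_PRMT1. Adamts17, a secreted metalloproteinase, stood at 0.109 and 0.333 CPM in HOXA9_KO against 1.99 and 1.85 in WT, and at 1.1 and 0.803 in PRMT1_KO against 5.6 and 4.41 in WT_PRMT1. In each of the 8 both knockout libraries lay below both of their wild-type libraries, again by the naming rule. The HOXA9_KO call was lost without 1 library for Adamts17 (HOXA9_KO S4 or WT S1 left out, adjusted p up to 0.144), Colq (HOXA9_KO S4 or WT S2 left out, adjusted p up to 0.133) and Apold1 (HOXA9_KO S5 or WT S1 left out, adjusted p up to 0.122), and the PRMT1_KO call for Adamts17 (PRMT1_KO S9 or WT_PRMT1 S10 left out, adjusted p up to 0.0769). Hspa1a, Adamts17, Colq, Fam129c and Depp1 share bases with another annotated gene.

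The largest positive differences were mostly genes at a high level in WT_PRMT1 alone. Dnase1l3, a secreted DNase of dendritic cells and macrophages, stood at 3.6 and 6.16 CPM in HOXA9_KO against 2.82 and 3.61 in WT, and at 0.368 and 0.178 in PRMT1_KO against 23.8 and 20.3 in WT_PRMT1. Xcr1, the chemokine receptor of cross-presenting dendritic cells, stood at 1.42 and 3.66 CPM in HOXA9_KO against 3.24 and 2.5 in WT, and at 0.245 and 0.268 in PRMT1_KO against 21.6 and 14.3 in WT_PRMT1. Tlr11, a Toll-like receptor, stood at 0.437 and 3.54 CPM in HOXA9_KO against 2.51 and 3.24 in WT, and at 0 and 0.178 in PRMT1_KO against 9.9 and 7.91 in WT_PRMT1. Tnfrsf19, a Wnt-responsive TNF receptor, stood at 1.86 and 2.58 CPM in HOXA9_KO against 3.66 and 6.76 in WT, and at 0.123 and 0 in PRMT1_KO against 12.1 and 11.8 in WT_PRMT1. Col1a1, type I collagen, stood at 1.2 and 1.37 CPM in HOXA9_KO against 2.93 and 2.04 in WT, and at 1.53 and 1.52 in PRMT1_KO against 144 and 313 in WT_PRMT1, so that its WT_PRMT1 libraries differed from each other and from the other 6. Their adjusted p for the difference was 0.00642, 0.000433, 0.0302, 0.0141 and 0.00532. Fap, a fibroblast surface protease, was instead high in HOXA9_KO, at 7.43 and 8.78 CPM in HOXA9_KO against 0.68 and 0.0463 in WT, and at 0.49 and 0.0892 in PRMT1_KO against 1.19 and 1.079 in WT_PRMT1 (difference 6.55 ± 1.15, adjusted p = 0.00158). Ddr1, a collagen receptor, stood at 5.68 and 7.28 CPM in HOXA9_KO against 0.314 and 0.463 in WT, and at 7.47 and 5.57 in PRMT1_KO against 17.3 and 19.96 in WT_PRMT1, and Hmgcll1, a lyase of ketone body synthesis, at 0.983 and 1.46 CPM in HOXA9_KO against 0.523 and 2.87 in WT, and at 0.123 and 0.0892 in PRMT1_KO against 5.6 and 5.89 in WT_PRMT1. Dynlt1b, a dynein light chain, held 0 counts in both PRMT1_KO libraries, but its near-identical copies Dynlt1a, Dynlt1c and Dynlt1f make the value uncertain. In fits without 1 library the call of the difference was lost for Dnase1l3 (WT S1 or PRMT1_KO S9 left out, adjusted p up to 0.0629), Tlr11 (HOXA9_KO S5, WT S2, WT S1, PRMT1_KO S9, PRMT1_KO S8, WT_PRMT1 S11 or WT_PRMT1 S10 left out, adjusted p up to 0.147), Hmgcll1 (HOXA9_KO S5, HOXA9_KO S4, WT S1, PRMT1_KO S9, PRMT1_KO S8, WT_PRMT1 S11 or WT_PRMT1 S10 left out, adjusted p up to 0.211), Tnfrsf19 (HOXA9_KO S5, WT S1 or PRMT1_KO S9 left out, adjusted p up to 0.0867) and Ddr1 (any library left out, adjusted p up to 0.195). The PRMT1_KO call was lost for Hmgcll1 (PRMT1_KO S9 or PRMT1_KO S8 left out, adjusted p up to 0.0842). The HOXA9_KO and WT libraries overlapped for Dnase1l3, Xcr1, Tlr11 and Hmgcll1.

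The largest negative differences were led by genes high in PRMT1_KO alone. Pdcd1, the inhibitory receptor PD-1, stood at 0.655 and 0.582 CPM in HOXA9_KO against 0.628 and 0.648 in WT, and at 89.4 and 85.1 in PRMT1_KO against 2.49 and 3.87 in WT_PRMT1 (difference -4.82 ± 0.65, adjusted p = 0.000325). Hdc, which makes histamine, stood at 2.08 and 4.16 CPM in HOXA9_KO against 8.89 and 4.07 in WT, and at 57.3 and 66.9 in PRMT1_KO against 4.41 and 4.54 in WT_PRMT1. Ms4a2, the IgE receptor beta chain, stood at 1.2 and 1.25 CPM in HOXA9_KO against 4.92 and 1.85 in WT, and at 24 and 17.4 in PRMT1_KO against 0.792 and 1.35 in WT_PRMT1. Gzmb, granzyme B, stood at 2.62 and 1.66 CPM in HOXA9_KO against 0.732 and 1.48 in WT, and at 28.1 and 24.5 in PRMT1_KO against 0.453 and 0.0899 in WT_PRMT1. These 3 are known from mast cells and basophils, and the adjusted p of their differences was 0.00642, 0.014 and 0.00769. Dlk1, an imprinted Notch-family ligand, stood at 0.546 and 0.166 CPM in HOXA9_KO against 1.05 and 0.833 in WT, and at 54.9 and 54.5 in PRMT1_KO against 4.53 and 5.84 in WT_PRMT1. Calca, the calcitonin peptide gene, and Smoc2, a matrix protein, were at or near 0 in HOXA9_KO and WT and reached 19.3 and 15.7 and 18.1 and 14.2 CPM in the PRMT1_KO libraries. Ddx4, a germ cell RNA helicase, was the exception, low in HOXA9_KO alone, at 1.31 and 0.416 CPM in HOXA9_KO against 20.2 and 18.2 in WT, and at 17.6 and 14.5 in PRMT1_KO against 10.3 and 9.71 in WT_PRMT1 (difference -5.20 ± 0.54, adjusted p = 7.14e-06). Hnf4a, a liver and gut transcription factor named after its values were seen, was also low in HOXA9_KO alone, at 1.31 and 0.582 CPM in HOXA9_KO against 17.8 and 27.8 in WT, and at 19.2 and 16 in PRMT1_KO against 18.9 and 20.003 in WT_PRMT1 (difference -4.47 ± 0.47, adjusted p = 1.79e-05). Without 1 library the call of the difference was lost for Ms4a2 (HOXA9_KO S5, HOXA9_KO S4, WT S1, WT_PRMT1 S11 or WT_PRMT1 S10 left out, adjusted p up to 0.101), Gzmb (HOXA9_KO S5 or WT S2 left out, adjusted p up to 0.0612), Dlk1 (any library left out, adjusted p up to 0.132), Calca (WT S2 left out, adjusted p = 0.058) and Smoc2 (WT S1 left out, adjusted p = 0.993). The PRMT1_KO call was lost for Ms4a2 (WT_PRMT1 S11 or WT_PRMT1 S10 left out, adjusted p up to 0.099) and Dlk1 (WT_PRMT1 S11 or WT_PRMT1 S10 left out, adjusted p up to 0.108). The HOXA9_KO and WT libraries overlapped for Pdcd1, Hdc and Smoc2.

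Genes of long-term stem cells rose in both knockouts. In HOXA9_KO 35 rose and 1 fell (median change 1.09), and in PRMT1_KO 31 rose and 3 fell (median change 0.81). Both rose for 28 of 45, against 2.54% of all autosomal genes. Between WT and WT_PRMT1 24 were called higher, against 3.9% of all autosomal genes. The difference was called higher for 7 and lower for 6, and its median, -0.03, was 0.12 with library-size scaling. Esam, an adhesion molecule of stem cells, stood at 81.9 and 73.5 CPM in HOXA9_KO against 28 and 26.4 in WT, and at 56.5 and 49.1 in PRMT1_KO against 12.8 and 15.9 in WT_PRMT1. Tek, the Tie2 receptor, stood at 50.6 and 54.7 CPM in HOXA9_KO against 13.1 and 12.6 in WT, and at 23.9 and 26.1 in PRMT1_KO against 9.11 and 8.9 in WT_PRMT1, and Procr, the protein C receptor Epcr, at 95.2 and 64.4 CPM in HOXA9_KO against 46.9 and 48.8 in WT, and at 48 and 42.5 in PRMT1_KO against 26.8 and 25.5 in WT_PRMT1. Their differences were -0.36 ± 0.19, adjusted p = 0.21, 0.56 ± 0.21, adjusted p = 0.0702 and -0.05 ± 0.28, adjusted p = 0.939. Esam, Tek, Procr and Gata2 were chosen after their values were seen. Gata2, a stem and progenitor transcription factor, stood at 385 and 415 CPM in HOXA9_KO against 216 and 244 in WT, and at 220.2 and 224 in PRMT1_KO against 86.8 and 95.2 in WT_PRMT1, with a larger rise in PRMT1_KO (difference -0.49 ± 0.14, adjusted p = 0.0196). Selp, P-selectin, also a platelet gene, stood at 125 and 135 CPM in HOXA9_KO against 28.8 and 34.4 in WT, and at 133 and 145 in PRMT1_KO against 6.11 and 5.48 in WT_PRMT1 (difference -2.55 ± 0.20, adjusted p = 1.73e-06). The call of the difference was lost for Gata2 (WT S2, PRMT1_KO S9 or WT_PRMT1 S10 left out, adjusted p up to 0.104). The call in HOXA9_KO was lost for Procr (HOXA9_KO S4, WT S2, WT S1, PRMT1_KO S9, PRMT1_KO S8, WT_PRMT1 S11 or WT_PRMT1 S10 left out, adjusted p up to 0.294). The call in PRMT1_KO was lost for Procr (PRMT1_KO S8, WT_PRMT1 S11 or WT_PRMT1 S10 left out, adjusted p up to 0.103). The shares over all autosomal genes, to set list counts against, were 9.71% higher and 8.46% lower for the difference. They were 4.41% and 2.28% for HOXA9_KO, and 16.7% and 15.9% for PRMT1_KO. Here and for the lists that follow, the counts given for another setting or with a library left out are those over 1.5 times and at least 2 genes away. Stem cell genes with a higher difference numbered 4 with PRMT1_KO S8 or WT_PRMT1 S11 left out. Stem cell genes that fell in PRMT1_KO numbered 1 with PRMT1_KO S9 or PRMT1_KO S8 left out, 5 with HOXA9_KO S5 or HOXA9_KO S4 left out, library-size scaling, a filter at a mean of 5 CPM or no robust shrinkage, 6 with no filter and 7 with the 8 libraries alone or DESeq2.

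Megakaryocyte and platelet genes rose in both and more without Prmt1. In HOXA9_KO 9 rose and 0 fell (median change 1.30), and in PRMT1_KO 17 rose and 0 fell (median change 2.38). Of 20 of these genes tested, the difference was called higher for 0 and lower for 10, with a median difference of -1.15. Itgb3, the beta 3 integrin of platelets, stood at 71.5 and 91.9 CPM in HOXA9_KO against 17.5 and 19 in WT, and at 309 and 297 in PRMT1_KO against 29.1 and 34 in WT_PRMT1 (difference -1.10 ± 0.17, adjusted p = 0.000296). F2r, a thrombin receptor, rose in PRMT1_KO only, at 201 and 177 CPM in HOXA9_KO against 174 and 158 in WT, and at 281 and 312 in PRMT1_KO against 89.5 and 78.3 in WT_PRMT1 (difference -1.63 ± 0.15, adjusted p = 1.44e-06). Pf4, the platelet factor 4 gene, named after its values were seen, stood at 50.2 and 93.4 CPM in HOXA9_KO against 28.5 and 15.5 in WT, and at 64.4 and 49.7 in PRMT1_KO against 2.38 and 3.51 in WT_PRMT1 and its difference was not called (adjusted p = 0.148). Without 1 library the call in PRMT1_KO was lost for Pf4 (WT_PRMT1 S10 left out, adjusted p = 0.0605). Summed over the list, these genes came to 1711 and 1757 CPM in the HOXA9_KO libraries against 933 and 972 CPM in WT, and to 2050.0 and 2083 CPM in PRMT1_KO against 626 and 637 CPM in WT_PRMT1. WT was called above WT_PRMT1 for 9 of them, against 3.9% of all autosomal genes.

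Multipotent progenitor genes fell without Hoxa9. Hoxa9 itself is on this list, so its own loss counts among the falls in HOXA9_KO and among the lower differences. In HOXA9_KO 1 rose and 8 fell (median change -0.30), and in PRMT1_KO 3 rose and 5 fell (median change 0.09). Of 17 of these genes tested, the difference was called higher for 2 and lower for 9, with a median difference of -0.93. Flt3, the receptor that marks lymphoid-primed progenitors, stood at 162 and 167 CPM in HOXA9_KO against 537 and 421 in WT, and at 523 and 519.6 in PRMT1_KO against 453 and 495 in WT_PRMT1 (difference -1.68 ± 0.29, adjusted p = 0.0068). Cd34, a sialomucin of progenitors, stood at 422 and 345 CPM in HOXA9_KO against 765 and 715 in WT, and at 678 and 629 in PRMT1_KO against 595 and 635 in WT_PRMT1 (difference -1.04 ± 0.19, adjusted p = 0.00299). Flt3 and Cd34 were chosen after their values were seen, and the HOXA9_KO libraries lay below all others. Cebpa, the myeloid transcription factor, stood at 20.3 and 27.5 CPM in HOXA9_KO against 76.6 and 66.9 in WT, and at 102 and 94.9 in PRMT1_KO against 79.6 and 82.1 in WT_PRMT1 (difference -1.86 ± 0.20, adjusted p = 1.55e-05). With 1 library fewer the call in HOXA9_KO was lost for Flt3 (HOXA9_KO S5 or HOXA9_KO S4 left out, adjusted p up to 0.0841). Lymphoid priming genes were tested next. In HOXA9_KO 1 rose and 10 fell (median change -0.88), and in PRMT1_KO 4 rose and 6 fell (median change -0.46). Of 25 of them tested, the difference was called higher for 1 and lower for 7, with a median difference of -0.44. Lax1, a lymphocyte adaptor, rose in PRMT1_KO, at 19.3 and 26.2 CPM in HOXA9_KO against 32.6 and 30.4 in WT, and at 58.8 and 62.3 in PRMT1_KO against 30.5 and 28.8 in WT_PRMT1 (difference -1.5 ± 0.24, adjusted p = 0.000351). Multipotent progenitor genes with a higher difference numbered 4 with no robust shrinkage, DESeq2 or limma-voom. Multipotent progenitor genes that rose in PRMT1_KO numbered 5 with limma-voom. Multipotent progenitor genes that fell in PRMT1_KO numbered 3 with WT_PRMT1 S11 or WT_PRMT1 S10 left out. Lymphoid priming genes with a higher difference numbered 3 with the 8 libraries alone or limma-voom. Lymphoid priming genes with a lower difference numbered 11 with the 8 libraries alone. Lymphoid priming genes that fell in HOXA9_KO numbered 6 with HOXA9_KO S4 left out. Lymphoid priming genes that fell in PRMT1_KO numbered 3 with PRMT1_KO S9 or PRMT1_KO S8 left out, 10 with library-size scaling or DESeq2 and 11 with the 8 libraries alone or limma-voom.

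Myeloid progenitor genes, a list of granule proteases, transcription factors, cytokine receptors and others, rose without Prmt1, and 0 rose without Hoxa9. In HOXA9_KO 0 rose and 3 fell (median change -0.38), and in PRMT1_KO 11 rose and 0 fell (median change 1.13). Of 21 myeloid progenitor genes tested, the difference was called higher for 0 and lower for 11, with a median difference of -1.46. With 1 library left out, the lower count was 5 with WT S1 or WT_PRMT1 S11 or WT_PRMT1 S10 left out and 7 with WT S2 or PRMT1_KO S9 or PRMT1_KO S8 left out. Prtn3, proteinase 3, stood at 124 and 211 CPM in HOXA9_KO against 174 and 164 in WT, and at 1177 and 1113 in PRMT1_KO against 163 and 163 in WT_PRMT1 (difference -2.83 ± 0.31, adjusted p = 0.000902). Mpo, myeloperoxidase, stood at 153 and 267 CPM in HOXA9_KO against 413 and 322 in WT, and at 2039 and 2198 in PRMT1_KO against 519.6 and 558 in WT_PRMT1 (difference -2.78 ± 0.70, adjusted p = 0.0407). Elane, neutrophil elastase, stood at 6.55 and 50.8 CPM in HOXA9_KO against 74.4 and 33.7 in WT, and at 97 and 79.4 in PRMT1_KO against 39.96 and 40.8 in WT_PRMT1, with HOXA9_KO libraries far apart and no call (adjusted p of the difference = 0.365). Mpo and Elane were chosen after their values were seen. With a library dropped the call of the difference was lost for Mpo (any library left out, adjusted p up to 0.136). The call in PRMT1_KO was lost for Mpo (PRMT1_KO S9, PRMT1_KO S8, WT_PRMT1 S11 or WT_PRMT1 S10 left out, adjusted p up to 0.138). Of 20 late neutrophil genes tested, the difference was called higher for 0 and lower for 6, with a median difference of -2.16. That lower count was 2 with PRMT1_KO S8 or WT_PRMT1 S11 or WT_PRMT1 S10 left out and 3 with WT S1 left out and 11 with HOXA9_KO S5 left out. Il1r2, a decoy receptor for interleukin 1, stood at 0.655 and 1.71 CPM in HOXA9_KO against 3.03 and 2.22 in WT, and at 27.4 and 27.2 in PRMT1_KO against 4.24 and 2.83 in WT_PRMT1 (difference -4.07 ± 0.53, adjusted p = 5.15e-05). Summed over the list, late neutrophil genes came to 293 and 1515 CPM in the HOXA9_KO libraries against 722 and 2105 CPM in WT, and to 2658 and 3164 CPM in PRMT1_KO against 976 and 1063 CPM in WT_PRMT1. Myeloid progenitor genes that fell in HOXA9_KO numbered 1 with WT S1 left out and 5 with the 8 libraries alone. Myeloid progenitor genes that rose in PRMT1_KO numbered 4 with WT_PRMT1 S11 or WT_PRMT1 S10 left out, 6 with PRMT1_KO S9 left out and 7 with PRMT1_KO S8 left out.

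Mast cell and basophil genes rose without Prmt1. In HOXA9_KO 2 rose and 0 fell (median change 0.17), and in PRMT1_KO 11 rose and 0 fell (median change 3.22). Of 15 of them tested, the difference was called higher for 0 and lower for 7, with a median difference of -3.68. The lower count was 4 with HOXA9_KO S5 or WT S1 left out. Cpa3, the mast cell carboxypeptidase, chosen after its values were seen, stood at 18.8 and 21.3 CPM in HOXA9_KO against 18.4 and 17.2 in WT, and at 46.5 and 51.5 in PRMT1_KO against 6.06 and 12 in WT_PRMT1 (difference -2.26 ± 0.54, adjusted p = 0.0202). Srgn, the granule proteoglycan serglycin, stood at 969 and 972 CPM in HOXA9_KO against 1082 and 976 in WT, and at 1348 and 1262 in PRMT1_KO against 629.6 and 599 in WT_PRMT1 (difference -1.17 ± 0.10, adjusted p = 1.03e-06). The call of the difference was lost for Cpa3 (HOXA9_KO S5, HOXA9_KO S4, WT S2, WT S1, PRMT1_KO S9 or PRMT1_KO S8 left out, adjusted p up to 0.111). Summed over the list, these genes came to 1397 and 1443 CPM in the HOXA9_KO libraries against 1257 and 1365 CPM in WT, and to 1991 and 2054 CPM in PRMT1_KO against 779.8 and 780.4 CPM in WT_PRMT1. Erythroid genes gave no common direction. In HOXA9_KO 0 rose and 1 fell (median change -1.23), and in PRMT1_KO 9 rose and 6 fell (median change 0.01). Of 27 of these tested, the difference was called higher for 1 and lower for 7, against 9.71% and 8.46% of all autosomal genes. The median difference was -0.55. Rhag, a red cell ammonia channel, stood at 3.93 and 6.03 CPM in HOXA9_KO against 6.22 and 3.89 in WT, and at 26.5 and 28 in PRMT1_KO against 4.07 and 4.49 in WT_PRMT1 (difference -2.68 ± 0.45, adjusted p = 0.000435). The lower count for erythroid genes was 3 with WT_PRMT1 S11 left out. Mast cell and basophil genes with a lower difference numbered 12 with DESeq2. Mast cell and basophil genes that rose in PRMT1_KO numbered 7 with a filter at a mean of 5 CPM. Erythroid genes with a higher difference numbered 3 with library-size scaling. Erythroid genes with a lower difference numbered 11 with the 8 libraries alone. Erythroid genes that fell in HOXA9_KO numbered 3 with WT S2 left out, 5 with HOXA9_KO S5 left out or DESeq2 and 6 with no filter or the 8 libraries alone. Erythroid genes that rose in PRMT1_KO numbered 5 with PRMT1_KO S9 or WT_PRMT1 S10 left out. Erythroid genes that fell in PRMT1_KO numbered 2 with PRMT1_KO S9 or PRMT1_KO S8 left out and 3 with WT_PRMT1 S11 or WT_PRMT1 S10 left out or no filter.

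B cell genes fell without Prmt1. In HOXA9_KO 0 rose and 1 fell (median change -0.66), and in PRMT1_KO 1 rose and 14 fell (median change -1.57). Of 24 of them tested, the difference was called higher for 6 and lower for 1, with a median difference of 1.06. The higher count was 2 with WT S1 or PRMT1_KO S9 or PRMT1_KO S8 or WT_PRMT1 S10 left out and 3 with HOXA9_KO S5 or WT S2 or WT_PRMT1 S11 left out. Fcrla, an Fc receptor-like B cell protein, stood at 5.57 and 9.4 CPM in HOXA9_KO against 2.93 and 3.52 in WT, and at 3.06 and 4.46 in PRMT1_KO against 14.1 and 12.2 in WT_PRMT1 (difference 3.02 ± 0.52, adjusted p = 0.000574). Summed over the list, B cell genes came to 16090.0 and 23580.0 CPM in the HOXA9_KO libraries against 5557 and 10320.0 CPM in WT, and to 7848 and 10400.0 CPM in PRMT1_KO against 8293 and 8345 CPM in WT_PRMT1. Most of that sum came from 2 immunoglobulin genes, named after their values were seen: Ighm stood at 8787 and 13178 CPM in HOXA9_KO against 2552 and 5845 in WT, and at 4319 and 6518 in PRMT1_KO against 3335 and 3356 in WT_PRMT1, and Igkc at 6406 and 9017 CPM in HOXA9_KO against 1324 and 2611 in WT, and at 2851 and 3217 in PRMT1_KO against 1847 and 1929.7 in WT_PRMT1. The change of Ighm was 1.39 ± 0.53 without Hoxa9 and 0.70 ± 0.52 without Prmt1 (adjusted p = 0.229 and 0.383), and that of Igkc was 1.97 ± 0.52 without Hoxa9 and 0.68 ± 0.50 without Prmt1 (adjusted p = 0.0896 and 0.369). B cell genes with a higher difference numbered 10 with library-size scaling, the 8 libraries alone or no robust shrinkage and 11 with DESeq2. B cell genes that rose in HOXA9_KO numbered 2 with DESeq2 or limma-voom. B cell genes that fell in HOXA9_KO numbered 3 with HOXA9_KO S5 left out, library-size scaling or no filter, 4 with no robust shrinkage, 5 with the 8 libraries alone, 6 with DESeq2 and 10 with limma-voom. B cell genes that fell in PRMT1_KO numbered 8 with PRMT1_KO S9 or PRMT1_KO S8 left out. The part of B cells in the result was not tested.

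Dendritic cell genes were called lower without Prmt1 and rarely without Hoxa9. In HOXA9_KO 1 rose and 1 fell (median change -0.14), and in PRMT1_KO 0 rose and 12 fell (median change -2.26). Of 20 of them tested, the difference was called higher for 10 and lower for 1, with a median difference of 2.40. WT was called below WT_PRMT1 for 9 of them, against 3.73% of all autosomal genes. The PRMT1_KO change was therefore measured from a higher wild-type level. The higher count was 5 with WT S2 or WT S1 or PRMT1_KO S9 or PRMT1_KO S8 or WT_PRMT1 S10 left out and 6 with HOXA9_KO S5 or HOXA9_KO S4 or WT_PRMT1 S11 left out. Spib, a factor of plasmacytoid dendritic and B cells, stood at 7.15 and 15 CPM in HOXA9_KO against 15.7 and 13.6 in WT, and at 10.6 and 8.03 in PRMT1_KO against 79.6 and 75.7 in WT_PRMT1 (difference 2.66 ± 0.42, adjusted p = 0.000763). Irf8, which dendritic cells and monocytes need, was chosen after its values were seen and stood at 97.6 and 318 CPM in HOXA9_KO against 210.3 and 194 in WT, and at 486 and 419.9 in PRMT1_KO against 993 and 1062 in WT_PRMT1, with no call in either knockout. Summed over the list, dendritic cell genes came to 1421 and 2314 CPM in the HOXA9_KO libraries against 2447 and 2503 CPM in WT, and to 1981 and 2108 CPM in PRMT1_KO against 6394 and 6669 CPM in WT_PRMT1. Of 30 T and NK cell genes tested, the median difference was -0.01. The difference was called higher for 0 and lower for 5, against 9.71% and 8.46% of all autosomal genes. The lower count was 2 with HOXA9_KO S5 or WT S1 left out and 3 with HOXA9_KO S4 or WT S2 or PRMT1_KO S9 or PRMT1_KO S8 or WT_PRMT1 S11 or WT_PRMT1 S10 left out. The T cell gene Cd3e was at 0 CPM in both HOXA9_KO libraries and reached at most 2.43 CPM elsewhere. Cd4 stood higher, at 0.437 and 0.458 CPM in HOXA9_KO against 3.82 and 2.41 in WT, and at 14.2 and 15.7 in PRMT1_KO against 27.3 and 22.7 in WT_PRMT1. Cd8a stood at 0.328 and 0.166 CPM in HOXA9_KO against 0.941 and 0.555 in WT, and at 1.96 and 0.803 in PRMT1_KO against 8.6 and 6.43 in WT_PRMT1. The median change of the list was -0.42 in HOXA9_KO and -1.24 in PRMT1_KO. Of 23 endothelial and stromal genes tested, the difference was called higher for 5 and lower for 3, with a median difference of 0.10. Emcn, endomucin, stood at 2.95 and 2.75 CPM in HOXA9_KO against 17.1 and 18.7 in WT, and at 14.7 and 11.6 in PRMT1_KO against 20.5 and 19.7 in WT_PRMT1 (difference -2.04 ± 0.29, adjusted p = 0.000104). Without 1 library the call in PRMT1_KO was lost for Emcn (PRMT1_KO S9, WT_PRMT1 S11 or WT_PRMT1 S10 left out, adjusted p up to 0.268). Dendritic cell genes with a lower difference numbered 4 with the 8 libraries alone. Dendritic cell genes that fell in HOXA9_KO numbered 3 with DESeq2 and 4 with the 8 libraries alone. T and NK cell genes with a higher difference numbered 2 with the 8 libraries alone. T and NK cell genes with a lower difference numbered 8 with the 8 libraries alone. Endothelial and stromal genes with a higher difference numbered 3 with a filter at a mean of 5 CPM. The part of such cells in these results was not tested.

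DNA replication genes fell in PRMT1_KO, and fewer were called in HOXA9_KO. In HOXA9_KO 0 rose and 6 fell (median change -0.21), and in PRMT1_KO 0 rose and 48 fell (median change -0.71). The difference had a median of 0.53, against 0.026 over all autosomal genes, and was called higher for 35 of 60, or for 23 with WT S1 or WT_PRMT1 S11 left out. Tyms, thymidylate synthase, stood at 88.5 and 90.6 CPM in HOXA9_KO against 105 and 129.98 in WT, and at 26.6 and 26.4 in PRMT1_KO against 129.8 and 142 in WT_PRMT1. Its change was -0.40 ± 0.11 without Hoxa9 and -2.35 ± 0.12 without Prmt1 (difference 1.96 ± 0.16, adjusted p = 4.05e-07). Lig1 stood at 267 and 289 CPM in HOXA9_KO against 302 and 296 in WT, and at 149.8 and 150.2 in PRMT1_KO against 341 and 361 in WT_PRMT1 (difference 1.12 ± 0.12, adjusted p = 6.12e-06). Pole, the leading strand polymerase, stood at 95.1 and 108 CPM in HOXA9_KO against 98.3 and 98.3 in WT, and at 56.2 and 58.4 in PRMT1_KO against 119 and 132 in WT_PRMT1 (difference 1.17 ± 0.13, adjusted p = 1.19e-05). Clspn stood at 29.1 and 31.1 CPM in HOXA9_KO against 33.6 and 31.8 in WT, and at 18.8 and 21.2 in PRMT1_KO against 41.4 and 40.1 in WT_PRMT1 (difference 0.91 ± 0.22, adjusted p = 0.00719). Mcm5 stood at 413 and 419 CPM in HOXA9_KO against 474 and 496 in WT, and at 345 and 344 in PRMT1_KO against 572 and 594 in WT_PRMT1 (difference 0.54 ± 0.12, adjusted p = 0.00394). Mcm6 stood at 615 and 623 CPM in HOXA9_KO against 716 and 721 in WT, and at 568 and 540.1 in PRMT1_KO against 793 and 816 in WT_PRMT1 (difference 0.32 ± 0.09, adjusted p = 0.0191). Pcna, the sliding clamp, fell in both, at 469 and 461 CPM in HOXA9_KO against 679.8 and 659 in WT, and at 321 and 307 in PRMT1_KO against 654 and 639 in WT_PRMT1, and has a near copy, Pcna-ps2.

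Clspn, Mcm5, Mcm6, Mcm7, Rfc3 and Pcna were named for their promoters or roles after their values were seen. Of the 10 replication genes with the E2F letters, 7 fell in PRMT1_KO, 0 were called in HOXA9_KO and 6 were called in the difference. Over all 60 replication genes tested, 48 fell in PRMT1_KO, 6 fell in HOXA9_KO and 35 were called in the difference. The shares for PRMT1_KO and the difference lie near those of the list and say nothing particular about genes with these letters. Mcm7, another helicase subunit, stood at 456 and 492 CPM in HOXA9_KO against 561 and 574 in WT, and at 389 and 378 in PRMT1_KO against 573 and 628 in WT_PRMT1, and Rfc3, a clamp loader subunit, at 34.4 and 36.9 CPM in HOXA9_KO against 38.9 and 38.6 in WT, and at 26 and 25.1 in PRMT1_KO against 43 and 42.8 in WT_PRMT1. In every one of the genes with a value given here, the PRMT1_KO libraries were the lowest of the 8. Leaving out 1 library, the call of the difference was lost for Mcm6 (HOXA9_KO S5, HOXA9_KO S4, WT S2, WT S1, PRMT1_KO S9, WT_PRMT1 S11 or WT_PRMT1 S10 left out, adjusted p up to 0.131), Mcm7 (HOXA9_KO S5, WT S2, WT S1, PRMT1_KO S9, PRMT1_KO S8 or WT_PRMT1 S11 left out, adjusted p up to 0.17) and Rfc3 (any library left out, adjusted p up to 0.13). In HOXA9_KO the call was lost for Tyms (HOXA9_KO S5, HOXA9_KO S4, WT S2, PRMT1_KO S9 or PRMT1_KO S8 left out, adjusted p up to 0.528). Lig1, Pole, Clspn and Mcm7 share bases with another annotated gene, and Mcm7 has a near copy, Gm5487. Replication genes that fell in HOXA9_KO numbered 2 with HOXA9_KO S4 or WT S1 left out, 3 with WT S2, PRMT1_KO S9 or PRMT1_KO S8 left out or no robust shrinkage, 10 with the 8 libraries alone and 11 with DESeq2.

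Mitotic genes, too, fell in PRMT1_KO. In HOXA9_KO 0 rose and 2 fell (median change -0.33), and in PRMT1_KO 0 rose and 38 fell (median change -1.15). Of 43 mitosis genes tested, the difference was called higher for 20 and lower for 0, with a median difference of 0.86. The higher count was 10 with WT S1 left out and 13 with HOXA9_KO S5 left out. Kif11, the spindle kinesin, stood at 98.7 and 119 CPM in HOXA9_KO against 142 and 138 in WT, and at 62.2 and 54.9 in PRMT1_KO against 166 and 175 in WT_PRMT1 (difference 1.18 ± 0.18, adjusted p = 0.00027). Incenp, of the chromosomal passenger complex, stood at 88.8 and 105 CPM in HOXA9_KO against 112 and 122 in WT, and at 54.3 and 51.6 in PRMT1_KO against 135 and 139.8 in WT_PRMT1 (difference 1.10 ± 0.15, adjusted p = 8.72e-05), and Ndc80, a kinetochore protein, at 38.9 and 48.1 CPM in HOXA9_KO against 48.2 and 51.2 in WT, and at 22.6 and 22.9 in PRMT1_KO against 61.5 and 70.1 in WT_PRMT1. Cdk1, the mitotic kinase, chosen after its values were seen, fell in both, at 52.4 and 59.2 CPM in HOXA9_KO against 73.4 and 81.4 in WT, and at 40.7 and 36 in PRMT1_KO against 72.3 and 71.8 in WT_PRMT1, and its difference was not called (adjusted p = 0.106). With 1 library fewer the call in HOXA9_KO was lost for Cdk1 (HOXA9_KO S4, WT S2 or WT S1 left out, adjusted p up to 0.302). Mitosis genes that fell in HOXA9_KO numbered 0 with HOXA9_KO S4, WT S2 or WT S1 left out or no robust shrinkage, 4 with limma-voom, 5 with DESeq2, 6 with HOXA9_KO S5 left out, 11 with no filter and 13 with the 8 libraries alone.

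For homologous recombination, Fanconi and checkpoint genes, 41 members were tested. In HOXA9_KO 1 rose and 1 fell (median change -0.03), and in PRMT1_KO 1 rose and 29 fell (median change -0.81). The difference was called higher for 20 and lower for 0 (median 0.67), and the higher count was 9 with WT_PRMT1 S11 left out and 11 with WT S1 left out and 13 with PRMT1_KO S8 left out. Brca2, a recombination mediator, stood at 45.5 and 39.9 CPM in HOXA9_KO against 37.2 and 35.4 in WT, and at 10.8 and 11.7 in PRMT1_KO against 45.2 and 43.5 in WT_PRMT1 (difference 2.21 ± 0.18, adjusted p = 3.48e-07). Rad50, of the Mre11 complex, stood at 69.6 and 80.1 CPM in HOXA9_KO against 59.6 and 66.4 in WT, and at 31.9 and 32.6 in PRMT1_KO against 74.9 and 73.1 in WT_PRMT1 (difference 1.45 ± 0.16, adjusted p = 1.37e-05). Among p53 targets, Sesn1, a stress-induced inhibitor of mTORC1, stood at 56.1 and 54.7 CPM in HOXA9_KO against 60.3 and 49.6 in WT, and at 143 and 139.6 in PRMT1_KO against 39.7 and 40.1 in WT_PRMT1 (difference -1.81 ± 0.15, adjusted p = 6.79e-07). Rrm2b, the p53-induced ribonucleotide reductase subunit, stood at 12.8 and 13.3 CPM in HOXA9_KO against 12.8 and 15.3 in WT, and at 7.96 and 5.75 in PRMT1_KO against 16 and 21.9 in WT_PRMT1. With a library dropped the call of the difference was lost for Rrm2b (WT_PRMT1 S11 left out, adjusted p = 0.057). Of 33 p53 targets tested, the median difference was -0.17. The difference was called higher for 3 and lower for 8, against 9.71% and 8.46% of all autosomal genes. That lower count was 5 with WT S1 left out. Among cyclins, E2F factors and inhibitors, E2f1 and E2f7 fell in PRMT1_KO by 0.93 and 1.17 on the log2 scale and were not called in HOXA9_KO. Recombination and checkpoint genes that fell in HOXA9_KO numbered 3 with HOXA9_KO S5 left out or DESeq2. Targets of p53 with a higher difference numbered 1 with WT_PRMT1 S11 left out.

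**Figure D3:**
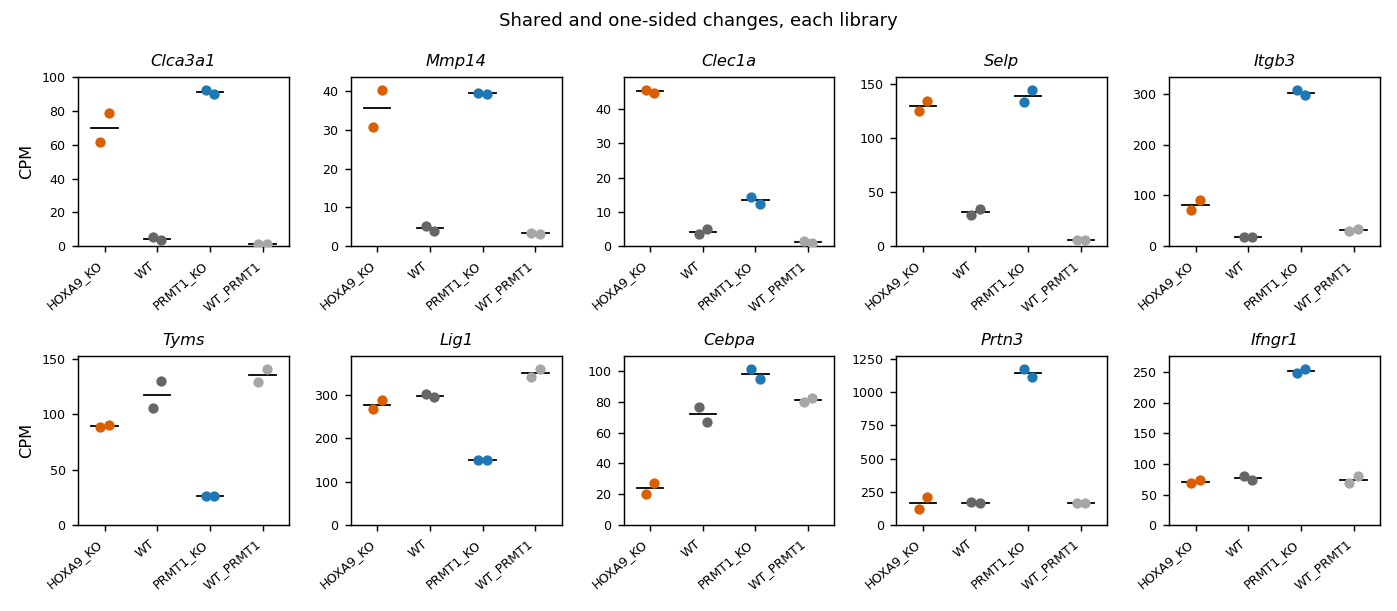
CPM of 10 genes called in both knockouts or in 1 of them, 1 panel a gene with its own axis starting at 0, with a point for each library and a short line for the mean of HOXA9_KO, WT, PRMT1_KO and WT_PRMT1 in that order. Mmp14 rises above wild type in both pairs, Lig1 falls in PRMT1_KO (149.8 and 150.2 CPM, against 341 and 361 CPM in WT_PRMT1), and Cebpa falls in HOXA9_KO (20.3 and 27.5 CPM, against 76.6 and 66.9 CPM in WT).

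Genes of splicing and RNA-binding proteins fell more often than they rose without Prmt1. In HOXA9_KO 0 rose and 4 fell (median change -0.11), and in PRMT1_KO 4 rose and 24 fell (median change -0.46). Of 38 of them tested, the difference was called higher for 18 and lower for 4, with a median difference of 0.33. Srsf10, a splicing regulator, stood at 109 and 108 CPM in HOXA9_KO against 112 and 119 in WT, and at 70.8 and 71.1 in PRMT1_KO against 147 and 151 in WT_PRMT1 (difference 0.98 ± 0.12, adjusted p = 3.12e-05). Hnrnpa2b1 stood at 1672 and 1679.7 CPM in HOXA9_KO against 1829 and 1856 in WT, and at 1025 and 1090.4 in PRMT1_KO against 1865 and 1848 in WT_PRMT1 (difference 0.68 ± 0.08, adjusted p = 3.18e-05), and Hnrnpr at 189 and 170.2 CPM in HOXA9_KO against 169 and 179.9 in WT, and at 111 and 112 in PRMT1_KO against 195 and 202 in WT_PRMT1. Both package nuclear RNA. Of 12 arginine methyltransferases the difference was called higher for 4, Prmt1 among them. Prmt7, which places monomethyl marks, stood at 63.1 and 55 CPM in HOXA9_KO against 60.7 and 69 in WT, and at 30.3 and 29.1 in PRMT1_KO against 59.1 and 59.4 in WT_PRMT1. Prmt3, which acts on ribosomal protein S2, stood at 78.9 and 67.3 CPM in HOXA9_KO against 88.8 and 86.5 in WT, and at 40.003 and 38.1 in PRMT1_KO against 80.7 and 75.8 in WT_PRMT1. Of 33 chromatin regulators tested, the median difference was -0.04. The difference was called higher for 2 and lower for 6, against 9.71% and 8.46% of all autosomal genes. Dnmt1, the maintenance DNA methyltransferase, stood at 326 and 312 CPM in HOXA9_KO against 289 and 285 in WT, and at 194 and 218 in PRMT1_KO against 299.6 and 303 in WT_PRMT1 (difference 0.70 ± 0.11, adjusted p = 0.000245). Splicing genes that fell in HOXA9_KO numbered 1 with HOXA9_KO S4 or WT S2 left out, 2 with HOXA9_KO S5 or WT S1 left out, 7 with limma-voom and 9 with DESeq2. Chromatin regulators with a higher difference numbered 4 with library-size scaling or a filter at a mean of 5 CPM. Chromatin regulators with a lower difference numbered 3 with WT S1 left out.

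Interferon and cytokine signalling genes differed in both directions. Of 44 type I interferon genes tested, the difference was called higher for 15 and lower for 4, with a median difference of 0.31. In HOXA9_KO 5 rose and 0 fell (median change -0.02), and in PRMT1_KO 8 rose and 17 fell (median change -0.29). Oas3, an antiviral synthetase, stood at 57 and 46.1 CPM in HOXA9_KO against 41.6 and 34.4 in WT, and at 19.4 and 14.7 in PRMT1_KO against 38.7 and 36.8 in WT_PRMT1 (difference 1.59 ± 0.22, adjusted p = 7.86e-05), and Ifi44 at 25.8 and 19 CPM in HOXA9_KO against 14.3 and 18.5 in WT, and at 10.2 and 11.2 in PRMT1_KO against 32 and 32.1 in WT_PRMT1 (difference 2.03 ± 0.28, adjusted p = 8.66e-05). WT was called below WT_PRMT1 for 11 of these genes, against 3.73% of all autosomal genes. Of 29 genes of antigen presentation tested, the difference was called higher for 5 and lower for 10, with a median difference of -0.31. H2-Q4, a class I gene, stood at 202 and 201 CPM in HOXA9_KO against 179 and 185 in WT, and at 324 and 340.5 in PRMT1_KO against 136 and 146 in WT_PRMT1 (difference -1.09 ± 0.11, adjusted p = 3.9e-06), and class I genes resemble one another, so reads may be shared among them. The higher count for antigen presentation was 1 with WT S2 or WT S1 or PRMT1_KO S9 or PRMT1_KO S8 or WT_PRMT1 S10 left out and 2 with HOXA9_KO S5 or HOXA9_KO S4 or WT_PRMT1 S11 left out. Of 27 cytokine receptors and SOCS genes tested, the difference was called higher for 2 and lower for 12, with a median difference of -0.67. Ifngr1, the interferon gamma receptor, stood at 68.3 and 74.3 CPM in HOXA9_KO against 79.6 and 73.2 in WT, and at 248 and 256 in PRMT1_KO against 69 and 79.8 in WT_PRMT1 (difference -1.86 ± 0.15, adjusted p = 3.86e-07). Il4ra, the interleukin 4 receptor, stood at 48.9 and 49.96 CPM in HOXA9_KO against 49.5 and 48 in WT, and at 178 and 176 in PRMT1_KO against 53.8 and 50.4 in WT_PRMT1. Socs2, a feedback inhibitor of cytokine signals, stood at 14.3 and 14.1 CPM in HOXA9_KO against 25.9 and 26.9 in WT, and at 12.3 and 10.5 in PRMT1_KO against 244 and 262 in WT_PRMT1, so that WT_PRMT1 was high and the other 3 groups low. Type I interferon genes with a lower difference numbered 2 with HOXA9_KO S5, WT S1, PRMT1_KO S8, WT_PRMT1 S11 or WT_PRMT1 S10 left out or library-size scaling. Type I interferon genes that rose in HOXA9_KO numbered 2 with WT S1 left out and 3 with HOXA9_KO S5 left out. Type I interferon genes that rose in PRMT1_KO numbered 5 with PRMT1_KO S9, WT_PRMT1 S11 or WT_PRMT1 S10 left out or library-size scaling. Antigen presentation genes with a higher difference numbered 2 with no filter.

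Hox genes and their partners rose more often than they fell. Hoxa9 itself, the targeted gene, is on this list and counts among the falls in HOXA9_KO and among the lower differences. In HOXA9_KO 6 rose and 2 fell (median change 0.56), and in PRMT1_KO 8 rose and 1 fell (median change 0.59). Of 25 Hox genes and cofactors tested, the difference was called higher for 1 and lower for 4, with a median difference of 0.21. Both rose for 6. Meis1, a Hox partner, stood at 144 and 123 CPM in HOXA9_KO against 92.3 and 88.2 in WT, and at 57.8 and 69.7 in PRMT1_KO against 47.3 and 52.4 in WT_PRMT1. Hoxb8 stood at 46.7 and 26.2 CPM in HOXA9_KO against 1.67 and 0.74 in WT, and at 1.96 and 1.25 in PRMT1_KO against 0.113 and 0.36 in WT_PRMT1, and Hoxb6 at 10.05 and 8.69 CPM in HOXA9_KO against 1.36 and 0.74 in WT, and at 1.47 and 0.714 in PRMT1_KO against 0.34 and 0.18 in WT_PRMT1. Hoxa5, of the same cluster as Hoxa9, fell in HOXA9_KO, at 7.7 and 7.95 CPM in HOXA9_KO against 14.5 and 12.8 in WT, and at 16.7 and 14 in PRMT1_KO against 10.6 and 10.02 in WT_PRMT1 (difference -1.38 ± 0.32, adjusted p = 0.00514). Hoxa10, the gene next to Hoxa9, stood at 13 and 9.28 CPM in HOXA9_KO against 18.9 and 20.7 in WT, and at 17 and 10.3 in PRMT1_KO against 11.1 and 8.77 in WT_PRMT1, with a call in the difference only (-1.29 ± 0.40, adjusted p = 0.0354). Meis1, Hoxb8, Hoxb6 and Hoxa10 were chosen after their values were seen. Hoxa5 shares bases with another annotated gene. The call of the difference was lost for Hoxa10 (HOXA9_KO S5, WT S2, WT S1, PRMT1_KO S8, WT_PRMT1 S11 or WT_PRMT1 S10 left out, adjusted p up to 0.179). The call in HOXA9_KO was lost for Hoxa5 (any library left out, adjusted p up to 0.249). The call in PRMT1_KO was lost for Meis1 (PRMT1_KO S9 or WT_PRMT1 S10 left out, adjusted p up to 0.288), Hoxb8 (PRMT1_KO S9, PRMT1_KO S8, WT_PRMT1 S11 or WT_PRMT1 S10 left out, adjusted p up to 0.129) and Hoxb6 (PRMT1_KO S8 or WT_PRMT1 S11 left out, adjusted p up to 0.131). Hox genes and cofactors that rose in PRMT1_KO numbered 4 with PRMT1_KO S9, PRMT1_KO S8, WT_PRMT1 S11 or WT_PRMT1 S10 left out and 5 with library-size scaling.

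The remaining lists are given by their counts. Over all autosomal genes tested, the difference was called higher for 9.71% and lower for 8.46%. The lower counts of the oxidative phosphorylation and ribosome biogenesis lists lie near that share. Both counts of the cholesterol and fatty acid list lie near these shares too. Of 67 oxidative phosphorylation genes tested, the difference was called higher for 0 and lower for 6, with a median difference of -0.10. Of 38 ribosome biogenesis genes tested, the difference was called higher for 2 and lower for 4, with a median difference of -0.11. Both medians were 0.04 with library-size scaling. Npm1, nucleophosmin, rose in PRMT1_KO, at 1611 and 1629.6 CPM in HOXA9_KO against 1744 and 1768 in WT, and at 2601 and 2538 in PRMT1_KO against 1748 and 1839.5 in WT_PRMT1, and Nop56, of the small nucleolar RNA complexes, fell, at 144 and 133 CPM in HOXA9_KO against 157 and 152 in WT, and at 98.3 and 99.9 in PRMT1_KO against 167 and 172 in WT_PRMT1. Of 32 immediate early, heat shock and related genes tested, Hspa1a and Hspa1b among them, the difference was called higher for 7 and lower for 9. Their median difference was -0.06. Their higher count was 4 with WT S2 or PRMT1_KO S8 or WT_PRMT1 S11 or WT_PRMT1 S10 left out. Myc stood at 115 and 139.9 CPM in HOXA9_KO against 164 and 162 in WT, and at 246 and 279.8 in PRMT1_KO against 168 and 144 in WT_PRMT1 (difference -1.11 ± 0.15, adjusted p = 7.2e-05). Of 28 cholesterol and fatty acid synthesis genes tested, the difference was called higher for 3 and lower for 2, with a median difference of 0.21. Of 39 amino acid stress genes tested, the difference was called higher for 7 and lower for 7, with a median difference of 0.01. That higher count was 2 with WT S1 left out and 3 with PRMT1_KO S8 or WT_PRMT1 S11 left out and 4 with HOXA9_KO S5 or WT_PRMT1 S10 left out. Ddit4, which restrains mTORC1, rose in both, at 109 and 109 CPM in HOXA9_KO against 75.7 and 82.9 in WT, and at 208 and 218 in PRMT1_KO against 83 and 74.2 in WT_PRMT1 (difference -0.99 ± 0.14, adjusted p = 0.000121). Without 1 library the call in HOXA9_KO was lost for Ddit4 (WT S1 left out, adjusted p = 0.134). Of 20 Wnt target genes tested, the difference was called higher for 3 and lower for 1, with a median difference of 0.00. Of 23 cyclins, E2F factors and inhibitors tested, the difference was called higher for 5 and lower for 1, with a median difference of 0.31. In HOXA9_KO 3 rose and 2 fell (median change 0.02), and in PRMT1_KO 3 rose and 12 fell (median change -0.48). Oxidative phosphorylation genes with a higher difference numbered 4 with library-size scaling. Oxidative phosphorylation genes with a lower difference numbered 10 with the 8 libraries alone. Ribosome biogenesis genes with a lower difference numbered 7 with RLE scaling and 9 with the 8 libraries alone or DESeq2. Cholesterol and fatty acid genes with a higher difference numbered 0 with HOXA9_KO S4, WT S1, PRMT1_KO S8, WT_PRMT1 S11 or WT_PRMT1 S10 left out, 1 with PRMT1_KO S9 left out, RLE scaling or no robust shrinkage and 5 with HOXA9_KO S5 left out or library-size scaling. Amino acid stress genes with a higher difference numbered 4 with no robust shrinkage. Wnt target genes with a higher difference numbered 1 with HOXA9_KO S5 or WT S1 left out or a filter at a mean of 5 CPM. Wnt target genes with a lower difference numbered 3 with HOXA9_KO S5 left out, no filter or the 8 libraries alone and 4 with DESeq2. Cyclins, E2F factors and inhibitors with a higher difference numbered 3 with WT S2, WT S1 or WT_PRMT1 S11 left out. Cyclins, E2F factors and inhibitors that rose in HOXA9_KO numbered 0 with WT S2 or WT S1 left out and 1 with HOXA9_KO S4 left out.

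**Figure D4:**
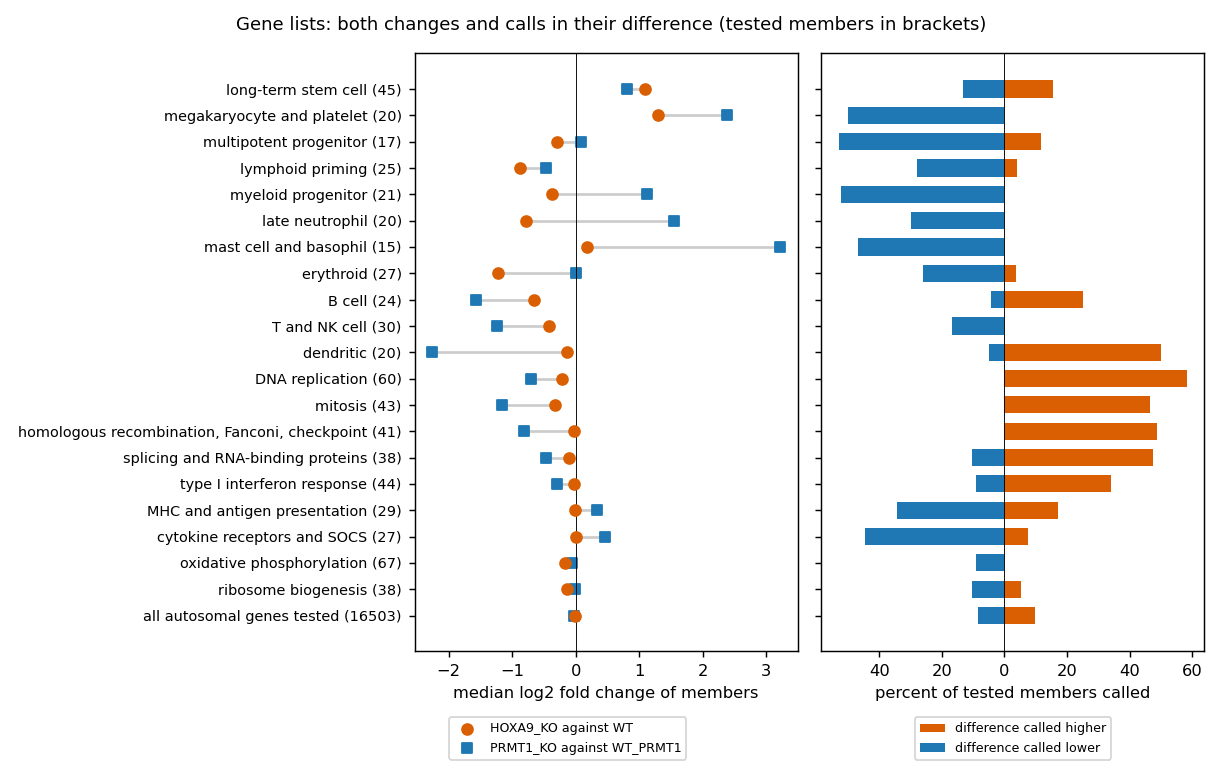
Left, the median log2 change per gene list in HOXA9_KO against WT (circles) and in PRMT1_KO against WT_PRMT1 (squares). Right, the percent of tested members with the difference called higher (to the right) or lower (to the left), with all autosomal genes in the last row. Long-term stem cell and megakaryocyte genes lie to the right of 0 in both knockouts, and DNA replication (-0.21 in HOXA9_KO and -0.71 in PRMT1_KO), mitosis (-0.33 and -1.15) and repair genes lie lower in PRMT1_KO.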

How the data were processed

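RNA from LSK cells was sequenced in 12 libraries of 6 groups. The authors deposited raw gene counts. Their processing notes, as the submitters gave them, name Trim Galore 0.6.6 for trimming, STAR 2.7.6a on GRCm38/mm10 for alignment and featureCounts for counting. Further settings are, in the sources used here, not given. Between 67.1 and 75.9% of nonzero counts were even, so both mates appear to have been counted. Columns named control were read as WT.

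Counts were analysed with edgeR 4.0.16: filterByExpr at a minimum count of 10, TMM scaling and a robust quasi-likelihood fit of all 12 libraries (6 residual degrees of freedom). The SE of a log2 change is its size over the root of its F value. The fit was run on simulated data, drawn from 1 mean level per gene with changes added in HOXA9_KO only. These simulated data held no difference of sex, between wild-type groups or in spread between groups. The run therefore cannot show how the fit handles those. Alternatives were RLE and library-size scaling, no filter, a mean of 5 CPM, the 8 libraries alone, DESeq2 1.42.0, limma-voom (limma 3.58.1), no robust shrinkage and leaving out each library.

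Named genes were autosomal and protein coding: the 8 largest per direction for shared and for opposite genes, called, at a mean of at least 2 CPM and with groups that did not overlap, the 10 largest per direction for the difference, called and at the same mean, up to 3 called members per list by p at any level, and both targets. Exceptions are marked. The members and the 32 lists were chosen with earlier results of these data known. Not every gene the rule named is described, and some are not reported here.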

Additional observations from a re-analysis of the deposited data

Results flagged for a closer look

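Genes on the Y chromosome gave a signal outside the autosomal comparison. They summed to 158 CPM in the lowest HOXA9_KO library against 18 CPM in the highest WT library, and to 230.0 CPM in the lowest PRMT1_KO library against 14.6 CPM in the highest WT_PRMT1 library. Both pairs carry this difference, so it cannot be told apart from an autosomal change that both knockouts share.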

How the results depend on the processing

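The counts of calls kept within 1.5 times under RLE and library-size scaling, a filter at a mean of 5 CPM, limma-voom with quality weights and edgeR without robust shrinkage, the last chosen after seeing the data. The count of genes in opposite directions was 129, and 196 with no filter, 198 when only the 8 libraries were fitted and 225 with DESeq2. The cause was not tested. With 1 library left out the difference held 2066 to 2688 calls, HOXA9_KO 500 to 996, PRMT1_KO 3859 to 5378, the same direction 300 to 476, opposite directions 52 to 143, and WT against WT_PRMT1 620 to 1427. A group left with 1 library was assumed to vary like the others. Of the 141 named genes called in the difference, 124 kept it in all alternatives and 110 in all fits without 1 library, and none reversed. No paired analysis was possible because the columns carry no replicate numbers. With 2 libraries a group and 17569709 to 24414323 counts a library, genes of a few counts give no usable fold.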

Other observations

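For 34 genes the difference and the direct comparison of HOXA9_KO with PRMT1_KO were called in opposite directions. The 6 named here were chosen after their values were seen. Aldh1a1, a retinal dehydrogenase, stood at 240.5 and 247 CPM in HOXA9_KO against 36.9 and 37.9 in WT, and at 115 and 118 in PRMT1_KO against 3.96 and 6.83 in WT_PRMT1, so HOXA9_KO was the higher knockout although the rise was larger in PRMT1_KO (difference -1.71 ± 0.31, adjusted p = 0.00616). Gp5, a platelet glycoprotein, stood at 16.1 and 17.8 CPM in HOXA9_KO against 10.6 and 9.81 in WT, and at 10.7 and 9.63 in PRMT1_KO against 1.58 and 1.98 in WT_PRMT1. Dusp4, a MAP kinase phosphatase, stood at 63 and 47.4 CPM in HOXA9_KO against 55.5 and 58.8 in WT, and at 17.3 and 18.2 in PRMT1_KO against 5.09 and 6.29 in WT_PRMT1. Col1a2, Pacsin1 and Fgr had positive differences of 4.24 ± 0.63, adjusted p = 0.00392, 1.47 ± 0.45, adjusted p = 0.0306 and 1.41 ± 0.42, adjusted p = 0.0309, while their levels were lower in HOXA9_KO than in PRMT1_KO. Col1a2 stood at 4.48 and 6.61 CPM in HOXA9_KO against 3.09 and 1.48 in WT, and at 23.4 and 19.3 in PRMT1_KO against 111 and 216 in WT_PRMT1. With 1 library fewer the call of the difference was lost for Pacsin1 (HOXA9_KO S5, WT S2, WT S1, PRMT1_KO S9, PRMT1_KO S8, WT_PRMT1 S11 or WT_PRMT1 S10 left out, adjusted p up to 0.145) and Fgr (HOXA9_KO S5, WT S2, PRMT1_KO S9, WT_PRMT1 S11 or WT_PRMT1 S10 left out, adjusted p up to 0.125).

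For 145 genes the difference was called although neither single change was. Chst2, a sulfotransferase, stood at 12.6 and 7.74 CPM in HOXA9_KO against 4.71 and 4.58 in WT, and at 0.674 and 1.43 in PRMT1_KO against 2.26 and 2.16 in WT_PRMT1 (difference 2.17 ± 0.52, adjusted p = 0.00725). Pde4a, a cyclic AMP phosphodiesterase, stood at 25.9 and 26.2 CPM in HOXA9_KO against 16.7 and 17.3 in WT, and at 12.1 and 13 in PRMT1_KO against 21.8 and 13.9 in WT_PRMT1. Its difference was 1.12 ± 0.27, adjusted p = 0.00798. With a library dropped the call of the difference was lost for Pde4a (WT_PRMT1 S10 left out, adjusted p = 0.0871). Both were chosen after their values were seen.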
